A study of Mus musculus with 6 samples.

Results

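Class 3 semaphorins are secreted guidance proteins. The 10 genes described here are the ligand genes Sema3a, Sema3c, Sema3d, Sema3e, Sema3f and Sema3g, the co-receptor genes Nrp1 and Nrp2, and the receptor genes Plxnd1 and Plxna4. They were taken by symbol from the 55450 genes of a droplet-based single-cell RNA sequencing matrix of mouse aortic tissue, and all 10 were present. The matrix combines 6 samples. Of these, 3 carry the genotype Best3FL/FL (titled CON, the floxed Best3 allele) and 3 carry Best3SMKO (titled KD, the smooth muscle deletion of the same gene). Best3 encodes bestrophin 3, a member of a chloride channel family. The sources used here do not name the Cre line, the age of the mice or any pooling of animals. Barcodes fall into 6 libraries by their suffix, but no suffix matches a label, so no library could be given a genotype. The matrix held 26 Best3 UMIs in all, too few to check the deletion. No value below compares the genotypes, and libraries are called 1 to 6 after their suffix.

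Class 3 semaphorins act on cells through a receptor complex. Neuropilins bind the ligand but have no signalling domain of their own, and A-type plexins or plexin D1 carry the signal through a cytoplasmic domain that acts on small GTPases of the R-Ras and Rap families. Sema3e differs in that it binds plexin D1 directly. Neuropilins are also co-receptors for vascular endothelial growth factors, with Nrp1 working beside the receptor encoded by Kdr and Nrp2 beside the lymphatic receptor encoded by Flt4. In developing vessels Nrp1 is known as an arterial and Nrp2 as a venous and lymphatic gene, and Sema3e and plexin D1 are known for vessel patterning along the body axis.

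The libraries held 7475 to 16269 barcodes and 51813179 to 96144873 UMIs (unique molecular identifiers, each counting 1 captured transcript), with a median of 4708 to 6289.5 UMIs per barcode. After filters on genes, mitochondrial counts and doublets, 50769 cells in 21 clusters were kept, and 297 barcode sequences among them occurred in at least 2 libraries. Clusters were named from marker genes, which gave 9 classes of at least 200 cells, led by fibroblast-like (16101 cells), smooth muscle cell-like (13977) and endothelial cell-like (8436) cells. Markers of vessel wall cells were present under the label of aortic tissue, and library 5 stood apart. It held 341 of 464 epithelial cell-like cells, whose leading genes included Bpifa1 and Scgb1a1, 387 of 449 B cell-like cells and 840 of 883 cells of an unnamed cluster led by Saa3 and C3. A share of 11.3% of its barcodes were called doublets against 3.02% to 4.23% elsewhere. Library 2 held 184 of 187 cells of a Tbx20-rich fibroblast-like cluster. Levels are given as CPM, the UMIs of a gene per 1000000 UMIs of the same cells. CPM of different genes were set against each other only to name the 2 highest genes of each pathway list, and within a cell group each range runs over the libraries with at least 20 such cells. Ranges over libraries show spread between libraries of unknown genotype, and intervals cover counting error only.

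The 10 genes were divided among cell classes rather than shared by all of them. Lymphatic endothelial cell-like cells had the highest level of Sema3a, Sema3d, Sema3f, Nrp2 and Plxna4, that is 5 of the 10 genes. Of all genes reaching 10 CPM, 9.06% were highest in that class. The lead over the next class was only 1.32-fold for Nrp2 and 1.12-fold for Plxna4. Endothelial cell-like cells of blood vessels had the highest level of Sema3g, Nrp1 and Plxnd1, 3 of the 10 genes against 7.66% of all genes. Sema3c was highest in fibroblast-like and Sema3e in Schwann cell-like cells. A gene was called placed in a class if its level there was at least 10 CPM, no less than 4 times its level in any other class, and the highest in every library. By this rule of size, which is no test, 4 of the 10 genes were placed, against 11.5% of all 13096 genes reaching 10 CPM. The ratio of the highest class to the next had a median of 2.46 over the 10 genes and 1.33 over all genes. The placed genes were all ligands, whereas both neuropilins and both plexins had a second class within a factor of 3 of the highest.

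**Figure D1:**
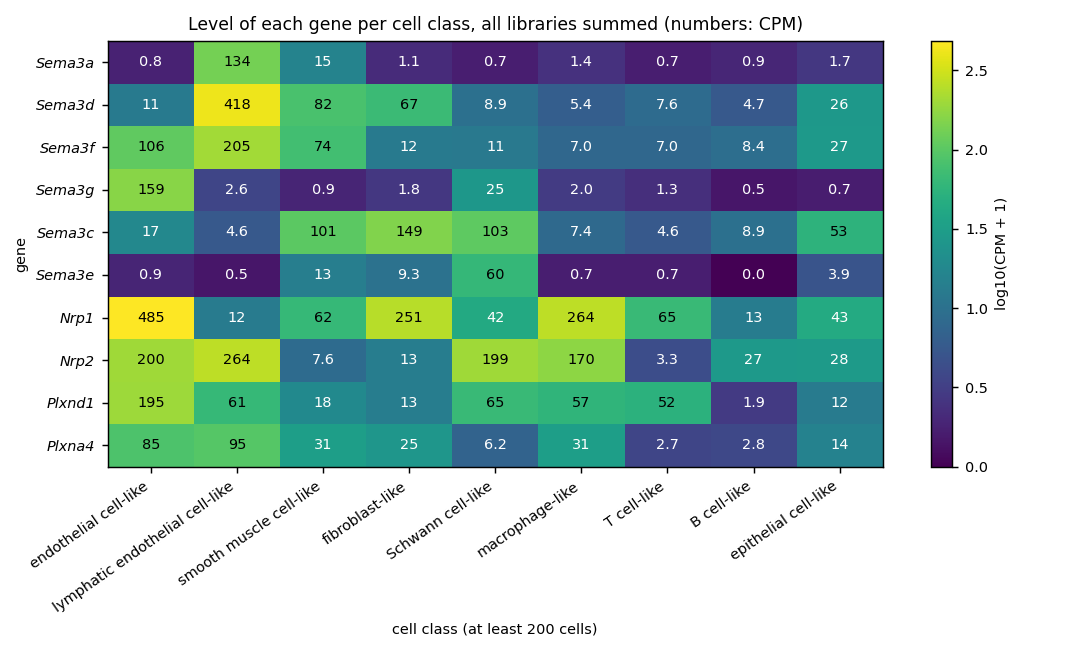
Level of the 10 genes (rows) in the 9 cell classes of at least 200 cells (columns), all libraries summed, in CPM; colour shows log10(CPM + 1). Sema3d reaches 418 CPM in the lymphatic endothelial column, and the co-receptor Nrp1 falls from 485 CPM in endothelial to 12.1 CPM in lymphatic endothelial cell-like cells.

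Sema3a, a ligand that acts through Nrp1 and repels axons, was placed in lymphatic endothelial cell-like cells. Its level in these 1541 cells ran from 111 to 167 CPM (median 127) over the 6 libraries, and from 8.78 to 22.4 CPM (median 12.9) in smooth muscle cell-like cells, the class with the next highest level. All 6 lymphatic values lay above all 6 smooth muscle values. Summed over libraries the levels were 134 and 14.8 CPM, a ratio of 9.05. Blood endothelial cell-like cells stood at 0.816 CPM, so that the ratio between both endothelial classes was 164 (76.3 to 280.1 in single libraries). Smooth muscle cell-like cells were a low but separate source, 12.9 times above fibroblast-like cells (8.14 to 20.98 in single libraries). Because that class holds 40.1% of all UMIs, it contributed 55.5% of the Sema3a UMIs of kept cells and the lymphatic class 37.2%.

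Sema3d, a ligand known for axon guidance and for pulmonary vein patterning in mice, was placed in the same class. It ran from 391 to 467 CPM (median 420.1) in lymphatic endothelial cell-like cells and from 62.6 to 107 CPM (median 75.7) in smooth muscle cell-like cells. Fibroblast-like cells followed closely, at 58.0 to 72.5 CPM (median 68.9). The lymphatic values stood clear of both, while the smooth muscle and fibroblast ranges overlapped. Summed levels were 418, 82.2 and 67.3 CPM, with a ratio of 5.09 between the first and the second. The lymphatic class contributed 17.8% of the Sema3d UMIs and smooth muscle cell-like cells 47.4%. With each cell thinned to 2000 UMIs, Sema3d was seen in 51.0% of 1392 lymphatic endothelial cell-like cells (95% interval 48.3% to 53.7%) and in 1.28% of T cell-like cells, whose level is taken as background. Without thinning these shares were 76.2% and 2.36%, at median depths of 5628 and 3328 UMIs.

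Sema3f, a ligand that binds Nrp2, was shared by both endothelial classes and smooth muscle. Its level was 156 to 237 CPM (median 207) in lymphatic endothelial, 76.5 to 138 CPM (median 109.8) in blood endothelial and 55.8 to 83.2 CPM (median 76.9) in smooth muscle cell-like cells. The lymphatic values exceeded the blood endothelial values in all 6 libraries, and the lowest blood endothelial value, that of library 1, lay within the smooth muscle range. Fibroblast-like cells had 11.8 CPM, 8.96 times below the blood endothelial level. Sema3f was not placed, since the first and second class differed by a factor of 1.94.

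Sema3g, a ligand known as a product of arterial endothelium, was placed in blood endothelial cell-like cells. Library values there ran from 126 to 213 CPM (median 151), against 11.7 to 32.2 CPM (median 24.3) in Schwann cell-like cells, the class next in order. The other 7 classes stayed at or below 2.62 CPM. The class levels of 159 and 25.2 CPM gave a ratio of 6.31, and blood endothelial cell-like cells, with 12.2% of all UMIs, held 92.3% of the Sema3g UMIs. Lymphatic endothelial cell-like cells, in which Sema3a and Sema3d were highest, had 2.62 CPM of this ligand.

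The ligand genes Sema3d, Sema3a, Sema3e and Sema3c follow each other on the plus strand of mouse chromosome 5, at chr5:12383385-12588948, chr5:13125414-13602565, chr5:14025276-14256689 and chr5:17574281-17730268 (GRCm38, GENCODE M21), although their highest classes differ. Sema3g lies on the plus strand at chr14:31217860-31230352 and Sema3f on the minus strand at chr9:107681500-107710475. Nrp1 is at chr8:128358604-128503363 and Nrp2 at chr1:62703285-62818695, both on the plus strand, and Plxnd1 (chr6:115954811-115995005) and Plxna4 (chr6:32144268-32588192) are on the minus strand. All 10 are annotated as protein-coding. Other annotated genes overlap Sema3a, Sema3d, Sema3e, Nrp1, Nrp2 and Plxna4 on the same or the opposite strand; the largest of them, Gm37121 within Nrp2, had 1336 UMIs against 21458 for Nrp2, and the sources used here do not say how strand was handled in counting.

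Promoters are shown for the ligands placed in an endothelial class, Sema3d and Sema3a in the lymphatic and Sema3g in the blood endothelial class, to set beside each other the annotated start regions of genes with separate cell sources. Each runs from 250 bases before to 50 bases after the start of the gene as given by RefSeq (GRCm38.p6), all on the plus strand, at chr5:12382916-12383215 for Sema3d, chr5:13396534-13396833 for Sema3a and chr14:31217623-31217922 for Sema3g. These RefSeq starts differ from the GENCODE starts given above. The Sema3a window lies within the GENCODE gene, the Sema3d window ends before the GENCODE start, and the Sema3g window spans it. Capitals mark the motif matches described next.
Sema3d: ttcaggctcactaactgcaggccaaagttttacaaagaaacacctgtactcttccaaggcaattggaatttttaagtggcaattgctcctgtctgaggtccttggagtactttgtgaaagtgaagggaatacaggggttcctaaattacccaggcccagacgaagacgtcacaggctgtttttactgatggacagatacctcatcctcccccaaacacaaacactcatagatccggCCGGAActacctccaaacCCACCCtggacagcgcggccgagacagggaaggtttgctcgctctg
Sema3a: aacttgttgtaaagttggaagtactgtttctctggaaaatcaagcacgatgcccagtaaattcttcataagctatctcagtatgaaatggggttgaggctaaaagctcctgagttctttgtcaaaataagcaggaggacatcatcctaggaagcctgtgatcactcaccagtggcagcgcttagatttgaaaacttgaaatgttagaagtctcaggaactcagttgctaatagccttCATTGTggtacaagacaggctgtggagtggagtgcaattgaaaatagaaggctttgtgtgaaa
Sema3g: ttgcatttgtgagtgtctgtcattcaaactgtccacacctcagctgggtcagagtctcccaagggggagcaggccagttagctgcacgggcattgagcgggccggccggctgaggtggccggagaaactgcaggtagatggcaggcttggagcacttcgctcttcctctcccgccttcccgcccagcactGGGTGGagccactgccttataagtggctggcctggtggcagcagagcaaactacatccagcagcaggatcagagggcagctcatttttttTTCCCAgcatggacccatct

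Of the 10 genes, 8 had a promoter in the RefSeq table, which holds 32851 promoters of the same length. The letters CCGGAA, an ETS core, were found in the Sema3d window and in 14.9% of all promoters, searched on both strands. ACAATG, a SOX motif, was found on the minus strand in the Sema3a window and in 12.6% of all promoters. TGGGAA, a motif of RBPJ, the DNA-binding factor of Notch signalling, was found on the minus strand in the Sema3g window and in 25.6% of all promoters. CCACCC, a KLF motif, was found in the windows of Sema3d, Sema3c, Nrp1 and Sema3g and in 31.5% of all promoters. The nuclear receptor hexamer AGGTCA (16.3% of all promoters) occurred in the Plxnd1 and Nrp1 windows and the E-box CACGTG (7.15%) in that of Sema3e. No match overlapped another, and a match says only that these letters are present. The windows also differed in base content, with 41.3% G and C for Sema3a, 49.7% for Sema3d, 58.7% for Sema3g and 75.7% for Sema3c, against a median of 52.7% over all promoters.

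Sema3c, a ligand needed for septation of the cardiac outflow tract in mice, was shared by fibroblast-like, Schwann cell-like and smooth muscle cell-like cells. It ran from 119 to 187 CPM (median 139) in fibroblast-like, 70.1 to 121 CPM (median 98.6) in Schwann cell-like and 84.0 to 133 CPM (median 89.7) in smooth muscle cell-like cells. The 3 ranges overlapped, and fibroblast-like cells were highest in 5 of 6 libraries. Lymphatic endothelial cell-like cells had 4.58 CPM, and the 8 smooth muscle markers together reached 3.81% to 7.11% of their smooth muscle level in the other classes. The part of such transcripts in the Sema3c value was not tested. Blood endothelial cell-like cells of library 5 stood apart, with 79.4 CPM against 3.64 to 8.04 CPM in the other libraries.

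Sema3e, the ligand that binds plexin D1 directly, had the fewest UMIs of the 10 genes (3728 of 71818 for the most counted gene, Nrp1) and was placed in Schwann cell-like cells. Its level there ran from 35.1 to 76.8 CPM (median 60.8), above the 7.37 to 18.4 CPM (median 13.3) of smooth muscle cell-like cells in every library. Class levels were 60.4 and 13.2 CPM, a ratio of 4.56. This was the lowest ratio of the 4 placed genes, and without library 2 the gene was no longer placed. Schwann cell-like cells, with 1.65% of all UMIs, held 10.5% of the Sema3e UMIs. Smooth muscle cell-like cells held 55.8% and fibroblast-like cells 29.4%. Both endothelial classes were near 0, with 0.884 CPM (95% Poisson interval 0.628 to 1.21) in blood and 0.468 CPM (0.152 to 1.09) in lymphatic endothelial cell-like cells.

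**Figure D2:**
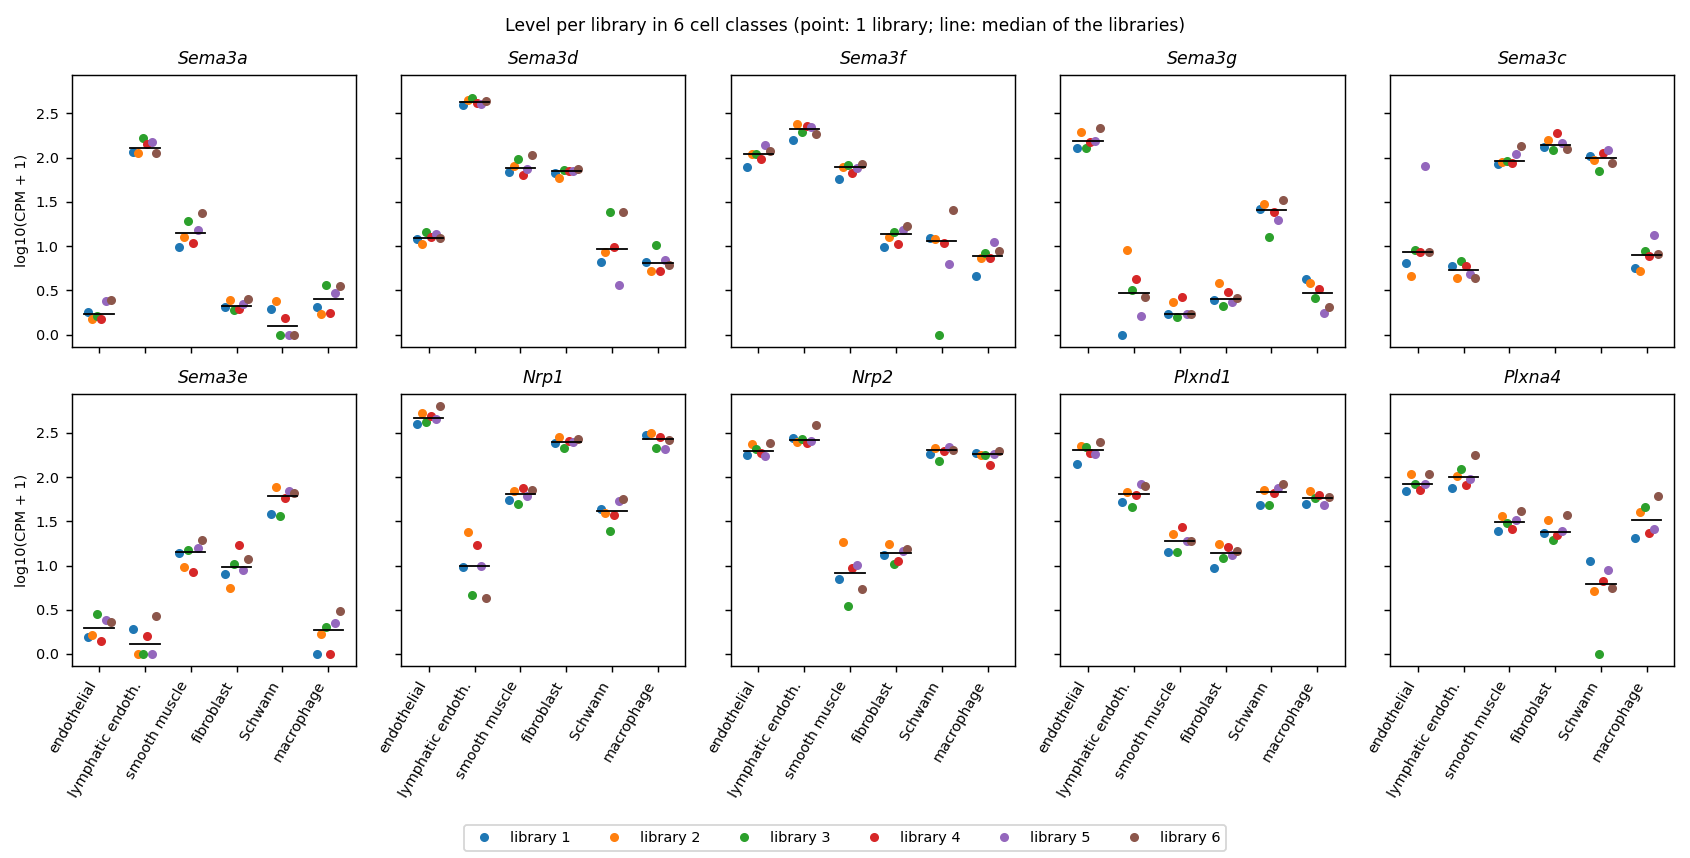
Level of each of the 10 genes in 6 cell classes, as log10(CPM + 1), with 1 point per library and a line at the median of the libraries. Library values of Sema3a and Sema3d in the lymphatic class, of Sema3g in the endothelial class and of Sema3e in the Schwann class lie above all values of the other classes shown, and library 5 stands out for Sema3c in the endothelial class.

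Of the co-receptors, Nrp1 separated the endothelial classes by far more than Nrp2, whose summed levels differed 1.32-fold. Nrp1 ran from 397 to 628 CPM (median 468) in blood endothelial cell-like cells and from 3.32 to 22.7 CPM (median 8.76) in lymphatic endothelial cell-like cells. No library came near an overlap: the summed levels of 485 and 12.1 CPM differed 40.2-fold, and 23.4 to 189-fold in single libraries. The lymphatic level was the lowest of all 9 classes, next to the 12.6 CPM of B cell-like cells. With a finer clustering (resolution 1.0), pericyte-like cells formed a class with 471 CPM, beside 487 CPM in blood endothelial cell-like cells. Nrp1 was also carried by macrophage-like cells, at 205 to 314 CPM (median 271), and by fibroblast-like cells, at 212 to 284 CPM (median 249.8), whose ranges overlapped. Smooth muscle cell-like cells were lower than these, at 48.0 to 74.8 CPM, and the summed level was 4.06 times higher in fibroblast-like than in smooth muscle cell-like cells.

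Nrp2 was high in 4 classes. Its level ran from 243 to 386 CPM (median 262) in lymphatic endothelial, 173 to 238 CPM (median 195) in blood endothelial, 152 to 216 CPM (median 199) in Schwann cell-like and 136 to 194 CPM (median 179.7) in macrophage-like cells. Lymphatic values were the highest in every library, and the other 3 classes overlapped each other. Fibroblast-like cells had 12.7 CPM, smooth muscle cell-like cells 7.63 CPM and T cell-like cells 3.32 CPM. As a whole, fibroblast-like cells were thus a class with much Nrp1 and little Nrp2, and lymphatic endothelial cell-like cells had the reverse. A small fibroblast-like cluster of 81 cells led by Apod and Ccl11 stood apart, with 221 CPM of Nrp2 (156 UMIs).

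Plxnd1, the receptor of Sema3e, was highest in blood endothelial cell-like cells. It ran from 138 to 249.9 CPM (median 199.6) there, and from 46.7 to 81.3 CPM (median 67.2) in Schwann cell-like, 44.5 to 81.4 CPM (median 63.6) in lymphatic endothelial and 46.9 to 68.1 CPM (median 57.6) in macrophage-like cells. The endothelial values stood above those of all 3, which overlapped each other. Class levels were 195 CPM in blood endothelial cell-like cells and 65.5 CPM in the next class, a ratio of 2.98. At the finer clustering dendritic cell-like cells came next, with 148 against 196 CPM. T cell-like cells had 51.8 CPM, but ran from 20.1 to 152 CPM (median 50.6), and the highest value, that of library 2 with 43 such cells, lay within the endothelial range. In contrast, fibroblast-like cells (12.7 CPM) were 15.4 times below the endothelial level. The class with the highest level of Sema3e, the Schwann cell-like cells, also had Plxnd1 itself. The endothelial class with the highest level of Plxnd1 had almost no Sema3e.

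Plxna4, an A-type plexin that serves with Nrp1 as a receptor of Sema3a in sensory axons, did not separate the endothelial classes. Its level was 73.8 to 176 CPM (median 97.9) in lymphatic and 68.4 to 108 CPM (median 82.4) in blood endothelial cell-like cells, and the ranges overlapped. Smooth muscle cell-like (31.1 CPM), macrophage-like (31.2 CPM) and fibroblast-like cells (24.8 CPM) followed. Schwann cell-like cells had 6.23 CPM.

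Blood endothelial cell-like cells were clustered again, without the 10 genes, into capillary-like (2990 cells), large-artery luminal-like (2404), venous-like (1163) and arteriolar-like (720) cells. The remaining 1159 cells formed 3 unnamed subclusters, the largest led by Htr2b, Comp and Prox1. This largest subcluster scored higher on the venous markers (1.48) than the subcluster named venous (1.04). It stayed unnamed because its leading genes held Prox1, of the lymphatic list, and no venous marker. Nts and Clca3a1, also among its leading genes, were leading genes of the lymphatic endothelial class too. A lymphatic part in this subcluster was not tested. Summed venous markers were 8851 CPM in the unnamed cells, 6309 CPM in venous-like and 5203 CPM in large-artery luminal-like cells. The arteriolar name rests on Gja4, Gja5, Dll4 and related markers, whose summed level was 2854 CPM there and 2092 CPM in large-artery luminal-like cells, and these cells also carried 5961 CPM of large-artery markers against 16716 CPM in the large-artery subtype. The factor for placement was set to 2 here, because subtypes differ less than classes. Of the 10 genes, 8 reached 10 CPM in a subtype and 4 were placed, against 10.2% of 9863 genes reaching 10 CPM. The genes were Sema3g in arteriolar-like, Nrp1 in capillary-like, and Plxna4 and Sema3d in large-artery luminal-like cells.

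Sema3g was concentrated in arteriolar-like cells, although with at most 10% mitochondrial UMIs per cell, and cells clustered anew, it was placed in capillary-like cells. Library values ran from 601 to 1027 CPM (median 821) there, 114 to 218 CPM (median 195) in capillary-like and 92.3 to 148 CPM (median 119.7) in large-artery luminal-like cells. Arteriolar values lay above all others in every library. Venous-like cells had 8.88 CPM, so that the levels spanned 95.6-fold between arteriolar-like and venous-like cells. The unnamed Htr2b-rich subcluster was lower still, at 3.89 CPM. With cells thinned to 2000 UMIs, Sema3g was seen in 74.6% of 582 arteriolar-like cells (95% interval 70.8% to 78.1%), 22.3% of the capillary, 18.4% of the large-artery and 1.32% of the venous subtype, against 0.160% of T cell-like cells. The unthinned shares were 83.9% in arteriolar-like cells (median depth 4144 UMIs) and 0.472% in T cell-like cells (median depth 3328 UMIs).

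Large-artery luminal-like cells were not uniform. A Klk10- and Coch-rich subcluster of 867 cells had 161 to 306 CPM (median 189.8) of Sema3g, against 40.3 to 87.1 CPM (median 61.7) in the Isl1- and Sfrp1-rich subcluster of 1537 cells, and was higher in all 6 libraries. Nrp1 went the other way, with 243 CPM in the Klk10-rich and 541 CPM in the Isl1-rich subcluster, again in all 6 libraries. Plxnd1 was higher in the Klk10-rich cells, at 209 against 120.4 CPM. Sema3f and Plxna4 stood at 152 against 154 CPM and 148 against 156 CPM. Sema3d was higher in the Isl1-rich subcluster, at 16.3 to 29.9 CPM (median 20.4) against 3.57 to 13.3 CPM (median 7.34), without overlap. These subclusters were singled out after their values were seen.

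Nrp1 was present in every blood endothelial subtype and peaked in capillary-like cells. It ran from 742 to 1086 CPM (median 897) there, 282 to 526 CPM (median 453) in large-artery luminal-like, 305 to 419 CPM (median 332) in arteriolar-like and 227 to 399 CPM (median 347) in venous-like cells. The last 3 overlapped each other, and the ratio of capillary-like to large-artery luminal-like cells was 2.09, just past the factor of 2. The Htr2b-rich subcluster stood lower, at 89.7 to 149 CPM (median 126), and was 2.75 times below venous-like cells.

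Nrp2 varied far more between subtypes than Nrp1. Its level was 371 to 569.6 CPM (median 424) in venous-like, 343 to 509 CPM (median 431) in Htr2b-rich, 205 to 343 CPM (median 259.6) in capillary-like, 9.29 to 31.0 CPM (median 13.5) in arteriolar-like and 1.18 to 4.30 CPM (median 2.82) in large-artery luminal-like cells. Venous-like cells and the Htr2b-rich subcluster overlapped, whereas large-artery luminal-like cells lay below all other subtypes in every library. The venous to large-artery ratio was 156 (89.5 to 482 in single libraries), and the capillary to large-artery ratio 88.5. With 2000 UMIs per cell Nrp2 was seen in 52.2% of 910 venous-like cells (95% interval 48.9% to 55.5%) and in 0.599% of 2005 large-artery luminal-like cells (95% interval 0.310% to 1.04%), the latter close to the 0.481% of T cell-like cells. Unthinned, the shares were 69.2%, 1.498% and 1.06%, at median depths of 4478, 5141 and 3328 UMIs. Venous-like cells exceeded the lymphatic endothelial class in all 6 libraries, where the lymphatic to venous ratio was 0.548 to 0.723.

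**Figure D3:**
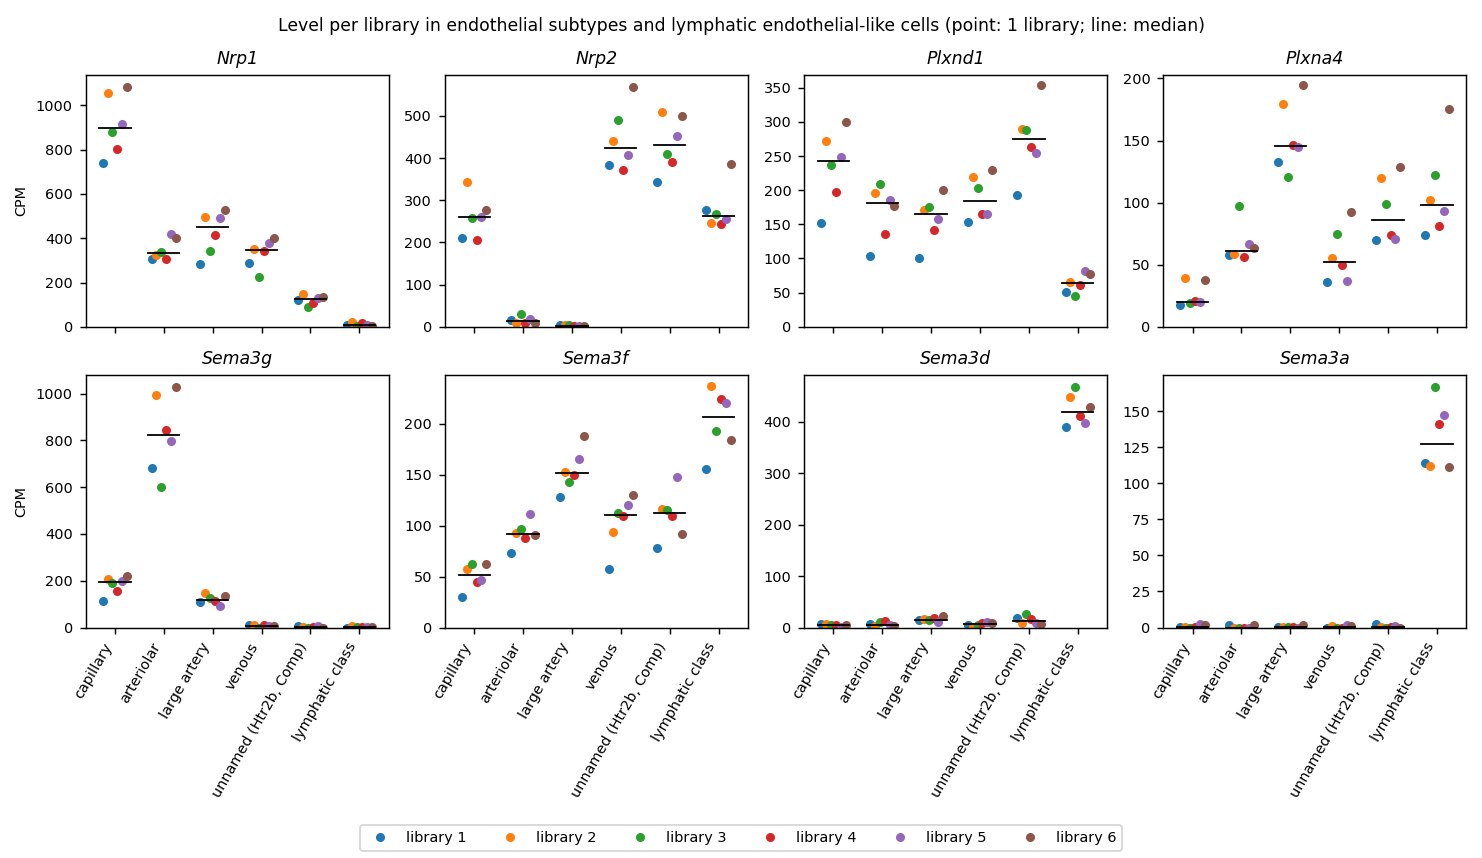
Level in CPM of 8 of the genes in the endothelial subtypes, the Htr2b-rich unnamed subcluster and the lymphatic endothelial class, with 1 point per library and a line at the median. Nrp2 is at most 31.0 CPM in arteriolar-like and 4.30 CPM in large-artery luminal-like cells, Sema3g is highest in arteriolar-like cells (601 to 1027 CPM), and Sema3a and Sema3d reach their highest levels in the lymphatic class.

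The receptors followed other orders. Plxnd1 was spread over all blood endothelial subtypes, at 152 to 300.5 CPM (median 242) in capillary-like, 153 to 229.7 CPM (median 184) in venous-like, 104 to 209 CPM (median 181) in arteriolar-like and 100.1 to 201 CPM (median 165) in large-artery luminal-like cells, with overlapping ranges. Capillary-like cells exceeded large-artery luminal-like cells within every library, by 1.35 to 1.59 times. The unnamed Htr2b-rich subcluster had 193 to 354 CPM (median 276) and exceeded capillary-like cells in 6 of 6 libraries. Plxna4 was placed in large-artery luminal-like cells, at 121 to 194 CPM (median 146), with 55.9 to 96.9 CPM (median 60.8) in arteriolar-like and 17.7 to 39.0 CPM (median 20.2) in capillary-like cells. Its capillary values lay below all large-artery values, and the summed levels differed 6.06-fold. Large-artery luminal-like cells also exceeded the lymphatic endothelial class in 5 of 6 libraries, at 153 against 94.9 CPM in the summed levels. The ligand Sema3f had the same order as Plxna4 at its ends, with 128 to 188 CPM (median 152) in large-artery luminal-like and 30.5 to 62.7 CPM (median 51.9) in capillary-like cells.

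Sema3d was low in every blood endothelial subtype and was placed in large-artery luminal-like cells at 16.0 CPM (95% Poisson interval 14.0 to 18.2), against 6.96 CPM in venous-like cells. It was no longer placed there without library 2 or with cells thinned to 2000 UMIs. This level is small beside the 82.2 CPM of smooth muscle cell-like cells, whose markers reached 4.29% of their own class level in the large-artery subtype; their part in the Sema3d value was not tested. Sema3a (0.565 CPM in arteriolar-like cells) and Sema3e (1.40 CPM in large-artery luminal-like cells) did not reach 10 CPM in any blood endothelial subtype.

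The high Sema3c value of library 5 in the endothelial class came from small groups of cells. An unnamed subcluster of 48 cells, all from library 5, was led by Hpgd, Slc6a2, Sema3c itself, Foxf1, Fendrr and Tmem100. It had 1293 CPM of Sema3c (95% Poisson interval 1150.3 to 1449.5), 393 CPM of Sema3f, 651 CPM of Nrp1 and 26.2 CPM of Nrp2. Another of 94 cells, 74 of them from library 5, mixed Schwann cell and fibroblast transcripts such as Mbp and Col1a1 with endothelial ones and had 169 CPM. The other 1194 endothelial cell-like cells of library 5 had 10.4 CPM. Both subclusters were singled out after the library 5 value was seen. Library 5 also held 115 of 135 cells of an unnamed cluster led by the surfactant protein genes Sftpc and Sftpa1. Whether the 48 cells came from tissue outside the aorta was not tested.

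The genes also varied among clusters of the same class. A cluster was said to differ from the rest of its class if either had at least 20 CPM, if the ratio was at least 2 or at most 0.5, and if each library with at least 20 cells on both sides went the same way. Of the 10 genes, 8 differed in at least 1 smooth muscle or fibroblast cluster, against 23.2% of all genes reaching that level in any of these clusters. Sema3a (at most 16.1 CPM) and Sema3g (at most 2.49 CPM) did not reach it. Leaving out the Tbx20-rich cluster of library 2 the count was 7, since Sema3f passed only there (27.9 against 11.5 CPM), against 14.2% of all genes. Macrophage-like cells formed 1 cluster and could not be divided.

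Smooth muscle cell-like cells held a cluster of 1787 cells rich in Actc1, Des, Notch3 and Pln in which 2 of the 6 ligands were lower and 3 of the 4 receptor and co-receptor genes higher than in the rest. Sema3c ran from 14.0 to 40.6 CPM (median 19.9) there and from 91.6 to 141 CPM (median 108) in the main smooth muscle cluster of 10160 cells. Sema3d ran from 3.69 to 23.3 CPM (median 7.83) and from 73.7 to 119 CPM (median 89.3). Neither gene overlapped between the clusters. Compared with all other smooth muscle cell-like cells, Sema3c was 23.1 against 111 CPM and Sema3d 10.8 against 91.3 CPM, so that 2 of the 10 genes were lower in it, as were 3.6% of all genes.

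The receptor genes Nrp1, Nrp2 and Plxnd1 were higher in this cluster, 3 of the 10 genes against 7.62% of all genes. Plxnd1 ran from 43.8 to 80.3 CPM (median 59.8) there and from 10.3 to 14.7 CPM (median 13.05) in the main cluster, with no overlap, and Nrp1 from 103 to 169 CPM (median 125) and from 38.0 to 59.7 CPM (median 52.5), also with none. Nrp2 was 22.6 CPM there and 5.72 CPM in all other smooth muscle cell-like cells, but its library ranges of 10.4 to 38.8 CPM and 2.53 to 18.1 CPM met. Pericyte markers were also raised in this cluster, where all 8 reached 10 CPM and their sum was 3239 CPM, against 1364 CPM and 4 of 8 in the main cluster. A Rgs5-rich smooth muscle cluster had a still higher sum, 8386 CPM with 3 of 8 markers past 10 CPM, and Nrp1 at 70.5 CPM, Nrp2 at 3.17 CPM and Plxnd1 at 13.6 CPM. The part of pericytes in these levels was not tested in the clustering used here. With a finer clustering, 394 pericyte-like cells separated, with 471 CPM of Nrp1 (332 to 669 CPM over the libraries), 72.3 CPM of Plxnd1, 69.7 CPM of Nrp2 and 9.84 CPM of Sema3c.

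Fibroblast-like cells split mainly into a large Smoc2- and Fmod-rich cluster of 11181 cells and a Pi16- and Clec3b-rich cluster of 4652 cells. Sema3c ran from 206 to 352 CPM (median 318) in the Pi16-rich and from 61.7 to 79.6 CPM (median 71.3) in the Fmod-rich cluster, with no overlap and a ratio of 4.28. Sema3e ran from 12.2 to 44.2 CPM (median 24.3) and from 0.408 to 2.65 CPM (median 0.704), again with no overlap. In the Pi16-rich cluster 2 of the 10 genes were higher than in the rest of the class, against 2.7% of all genes. Plxna4 was the 1 member lower in it, at 4.06 to 9.89 CPM (median 6.76) against 27.1 to 44.7 CPM (median 32.1) in the Fmod-rich cluster, and 2.98% of all genes were lower. Sema3e in the fibroblast class thus lay almost entirely in the Pi16-rich cluster, 950 UMIs against 59 in the larger Fmod-rich cluster. Nrp1 ran over 229 to 354 CPM and 202 to 262 CPM, with overlapping ranges, and was higher in the Pi16-rich cluster than in the rest of its class in 6 of 6 libraries, by 1.20 times in the summed levels.

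The Schwann cell-like class, whose clusters were compared after their values had been seen, separated the ligands further. A Fabp7-rich cluster low in myelin transcripts (646 cells) had 68.1 to 183 CPM (median 123) of Sema3e over the 5 libraries with 20 such cells, and the Mbp-rich cluster (998 cells) had 1.15 to 9.003 CPM (median 2.02). The ranges did not overlap, and the ratio was 36.1. Sema3c went the same way, at 164 to 227 CPM (median 176) and 4.65 to 41.3 CPM (median 20.3). Nrp2 was 279.6 CPM in the Fabp7-rich and 112 CPM in the myelin-rich cluster, without overlap of the libraries. Sema3g went the other way, with 40.6 to 54.2 CPM (median 47.3) in the myelin-rich cluster against 5.51 CPM. Endothelial markers summed to 179 CPM in that cluster, or 1.98% of their endothelial level, and to 111 CPM in the Fabp7-rich one. The Sema3g level of the myelin-rich cluster was 46.5 CPM, and that of endothelial cell-like cells 159 CPM. The part of endothelial transcripts in the Sema3g value was not tested. Plxnd1 was 62.3 CPM in the Fabp7-rich and 68.9 CPM in the myelin-rich cluster, and the library ranges overlapped.

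**Figure D4:**
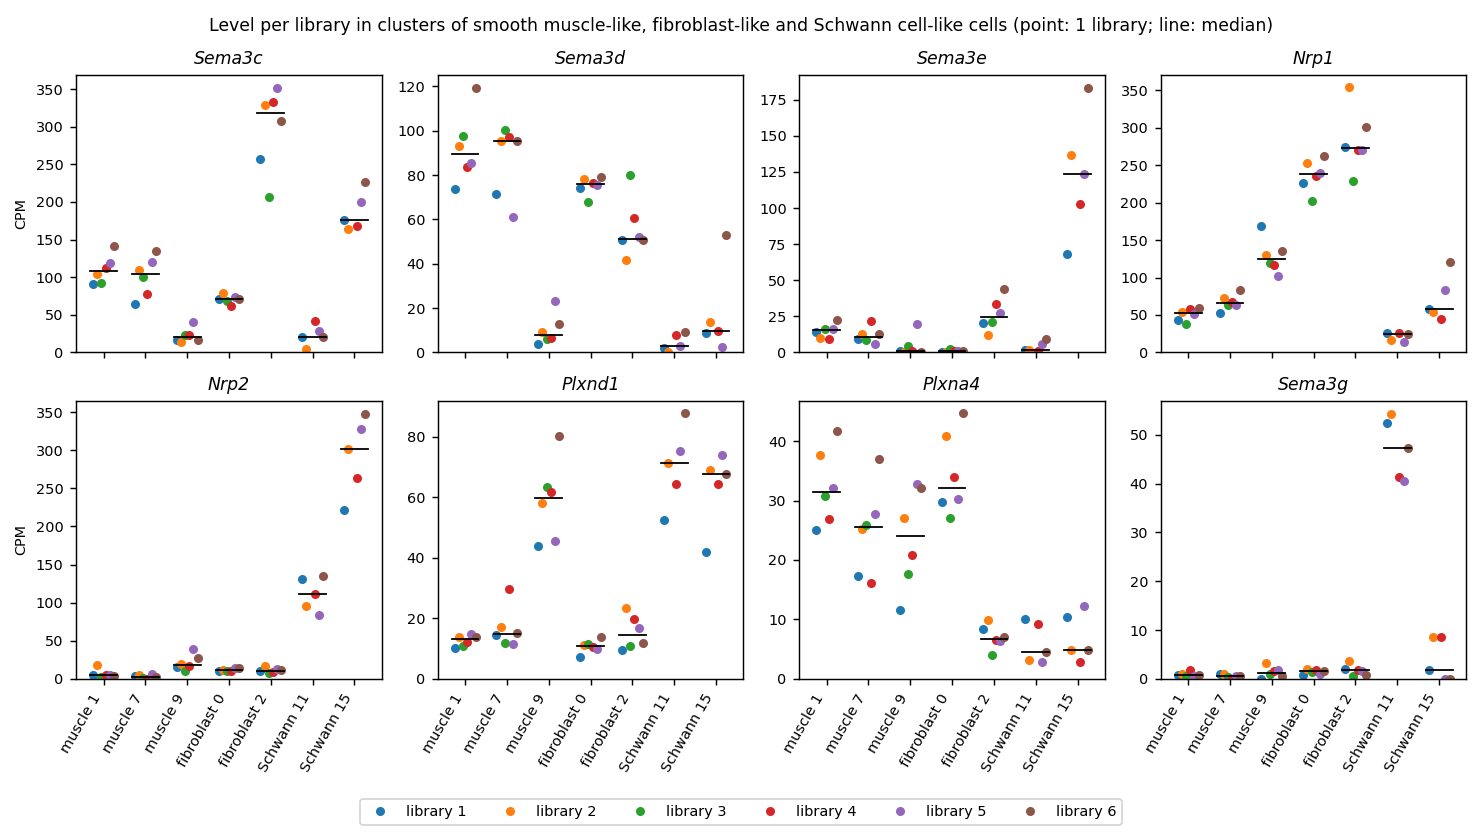
Level in CPM of 8 of the genes in smooth muscle, fibroblast and Schwann clusters, numbered as in the clustering, with 1 point per library and a line at the median. Muscle 9 is the Actc1-rich, muscle 7 the Rgs5-rich, fibroblast 2 the Pi16-rich, Schwann 15 the Fabp7-rich and Schwann 11 the myelin-rich cluster, and Sema3e runs from 68.1 to 183 CPM in Schwann 15.

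An unnamed immune cluster of 945 cells, with dendritic cell and neutrophil markers such as Cd74 and S100a9 and 486 cells from library 5, differed from macrophage-like cells in its receptors. Plxnd1 was 70.7 to 258 CPM (median 181) there and 46.9 to 68.1 CPM (median 57.6) in macrophage-like cells, higher in all 6 libraries, with the lowest value in library 5. Nrp1 was lower, at 27.1 to 53.2 CPM (median 48.0) against 205 to 314 CPM (median 271), and Nrp2 was 81.1 against 169.8 CPM. This cluster was also singled out after its values were seen.

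Transcripts of a co-receptor and a receptor were counted in the same cell after thinning to 2000 UMIs, which left 2077 capillary-like cells and left out 913 shallower ones. In the venous-like, large-artery luminal-like, arteriolar-like and lymphatic groups 253, 399, 138 and 149 cells were left out. Nrp1 and Plxnd1 were both seen in 26.4% of capillary-like, 11.98% of venous-like and 12.1% of large-artery luminal-like cells, and in 64 of 582 arteriolar-like cells. Without thinning the shares were 41.9% of capillary-like, 34.2% of venous-like, 36.4% of large-artery luminal-like and 32.1% of arteriolar-like cells, at median depths of 3153, 4478, 5141 and 4144 UMIs. In the lymphatic class the thinned share was 0.216% and in B cell-like cells 0 of 318 cells, which allows a share of up to 0.943% by the limit of 3 counts and 1.15% by the exact 95% interval. Nrp2 and Plxnd1 were both seen in 14.6% of venous-like, 11.8% of capillary-like and 3.88% of lymphatic endothelial cell-like cells, and in 0.0998% of large-artery luminal-like cells. The unthinned shares were 38.1%, 26.2%, 19.3% and 0.832% in the same order. Both neuropilins were seen together in 26.7% of capillary-like and 21.2% of venous-like cells, against 1.55% of arteriolar-like and 0.249% of large-artery luminal-like cells, and unthinned in 41.8%, 46.6%, 5% and 1.12% in the same order. At this depth a transcript present in few copies is often missed, so these shares are lower than those of cells that hold both transcripts. Alone, Nrp1 was seen in 78.9% of capillary-like, 40.3% of venous-like and 48.3% of large-artery luminal-like thinned cells. For Plxnd1 these shares were 32.5%, 29.1% and 24.3%, and for Nrp2 33.0%, 52.2% and 0.599%. Whether joint shares went beyond those that the single shares give was not tested.

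Among related genes, Sema3b, the remaining class 3 ligand, was placed in Schwann cell-like cells at 546 CPM, 8.34 times the next class. The counts below stand against 11.5% of all genes reaching 10 CPM that were placed in a class. Of 13 semaphorins of other classes 1 was placed, Sema4g in Schwann cell-like cells (11.3 CPM), and the genes of highest level were Sema6a, a transmembrane ligand, in lymphatic endothelial cell-like cells (266 CPM) and Sema4a in macrophage-like cells (142 CPM). Of 7 other plexins 1 was placed, Plxnb3 in Schwann cell-like cells (61.4 CPM), while Plxna2 was highest in blood endothelial cell-like (266 CPM) and Plxnb2 in macrophage-like cells (174 CPM). Of the 8 vascular endothelial growth factor ligands and receptors, 3 were placed. Flt1 was placed in blood endothelial cell-like cells (1142 CPM, 14.6 times the next class), Flt4 in lymphatic endothelial cell-like cells (617 CPM, 18.5 times) and the ligand gene Vegfd in fibroblast-like cells (287 CPM). Kdr was highest in lymphatic endothelial cell-like cells, at 801 against 410.3 CPM in blood endothelial cell-like cells, although Nrp1 was nearly absent from the former. Of 23 co-receptors and effectors 1 was placed, the adhesion molecule Chl1 in Schwann cell-like cells (506 CPM), and the highest levels were those of the small GTPase genes Rap1b in macrophage-like (703 CPM) and Rras in smooth muscle cell-like cells (615 CPM).

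Within blood endothelium, the same lists had 1 of 13 other semaphorins placed (Sema4d in large-artery luminal-like cells, 31.4 CPM), 1 of 7 other plexins (Plxnb2 in venous-like cells, 82.5 CPM), 2 of 8 growth factor genes and 3 of 23 co-receptors and effectors. These counts stand against 10.2% of all genes reaching 10 CPM in a subtype. Kdr was placed in capillary-like cells with Nrp1, at 1094 CPM, and stood at 9.73 CPM in large-artery luminal-like cells, where Nrp1 was at 424 CPM. Vegfc, the ligand of the lymphatic receptor encoded by Flt4, was placed in arteriolar-like cells with Sema3g, at 165 CPM, 3.02 times the next subtype. The effectors placed were Rnd1 in venous-like, Rnd3 in arteriolar-like and Mical2 in large-artery luminal-like cells, the last an enzyme that oxidises actin, at 305 CPM.

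For each of the 10 genes, the genes most like it in pattern were found by Pearson's r of log2(CPM + 5) over the 18 clusters of at least 200 cells, among 7602 genes reaching 50 CPM in a cluster. Clusters share libraries and are not independent, so r is given as a description. Among the endothelial ligands, Sema3g was most like Notch4 (r = 0.931), Sox17 (r = 0.924) and Ptprr (r = 0.876). Sema3a was most like Slc45a3 (r = 0.852), Gm21541 (r = 0.818) and Scn3a (r = 0.806), and Sema3d like Foxp2 (r = 0.899), Prelp (r = 0.872) and Slc45a3 (r = 0.862), so that Slc45a3 was near both. Sema3f was most like Tspan9 (r = 0.943), Tm4sf1 (r = 0.934) and Pgm5 (r = 0.929). Sema3c was most like Efs (r = 0.909), Olfml2b (r = 0.892) and Gm10115 (r = 0.890), and Sema3e like Fbxo2 (r = 0.906), Gm10046 (r = 0.883) and Jph4 (r = 0.875). The genes nearest to Nrp1 were Kctd12b (r = 0.878), Ly6c1 (r = 0.789) and Adam15 (r = 0.780), and those nearest to Nrp2 were Ralgds (r = 0.820), Cic (r = 0.808) and Plk2 (r = 0.788). For Plxnd1 they were Arhgap31 (r = 0.850), Pdgfb (r = 0.841) and Spag9 (r = 0.837), and for Plxna4 Trim47 (r = 0.889), Tmem109 (r = 0.865) and Tm4sf1 (r = 0.856). No member was among the 3 genes most like another member.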

How the data were processed

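Single-cell RNA sequencing (10x Genomics droplets) of mouse aortic tissue gave 1 matrix of whole-number UMI counts, deposited by the authors for 55450 genes and 60871 barcodes of 6 samples. The file header names cellranger 6.1.2. Per the submitters' processing notes the build was GRCm38 and the tools were bcl2fastq 5.01, Cell Ranger 3.1.0 and Seurat 3.1.1. The values are raw counts per cell, so neither depth scaling nor batch integration was found in them, and the sources used here do not say whether libraries were subsampled to equal depth. The 6 barcode suffixes match no sample label, so no sample or genotype was assigned and no test of genotype or p-value is given.

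Barcodes with at least 500 genes and at most 20% mitochondrial UMIs were kept, and doublets called by Scrublet per library (scanpy 1.11.5) were removed. Each cell was scaled to 10000 counts before a log transform, 2000 variable genes were chosen within libraries, and cells were clustered on 30 principal components and 20 neighbours (leidenalg 0.10.2, resolution 0.5). Variable genes excluded the 10 genes, 52 pathway genes and all mitochondrial and ribosomal genes, which therefore did not shape the clusters. Each marker list was scored in a cluster by the mean log2 ratio of its genes (plus 5 CPM) to their median over clusters, and the top list named the cluster. No name was given with under 3 markers at both 10 CPM and 2 times the median, with more markers of a different list among the 10 leading genes, or with another list scoring within 0.3. A cluster was also left unnamed if 3 times its median depth was below that of its libraries and no own marker was among its leading genes. Names come from these rules and not from an annotation by the authors. Endothelial cell-like cells were clustered again in the same way. For naming their subclusters, ratios were taken to the mean of the other subclusters instead of the median.

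UMIs were summed per class, subtype, cluster and library and given as CPM. The rules for placement and for differences between clusters are rules of size. The placement rule was checked on simulated data. Poisson and Clopper-Pearson intervals are exact at 95%, and a count of 0 is given the limit of 3 counts. Named genes are the 10 members, every pathway gene placed in a class, the 2 genes of highest class CPM in each pathway list and the 3 genes most like each member. The subtype placements of pathway genes, the Schwann clusters and the large-artery subclusters were named after their values were seen. So were the immune cluster, the small endothelial subclusters rich in Sema3c and the leading genes of clusters. The members and lists were chosen with earlier results of these data known. All identifiers were found in GENCODE M21. Alternatives were other filters, doublets kept, other resolutions, other factors, no minimum level, libraries weighted equally, cells thinned to 2000 UMIs and each library left out. Versions were Python 3.11.15, scikit-learn 1.9.0, pandas 2.3.3, scipy 1.17.1 and numpy 2.4.6.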

Additional observations from a re-analysis of the deposited data

Results flagged for a closer look

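The level of Nrp2 in lymphatic endothelial cell-like cells was 386 CPM in library 6, far above the other 5 libraries, which lay between 243 and 278 CPM. Library 6 held the fewest cells of this class, 96. The gap to the nearest library exceeded Dixon's 95% limit for 6 values, which chance passes in about 1 in 20 groups. How many groups were looked at is not given, so this rate cannot be weighed. The Sema3c value of library 5 in blood endothelial cell-like cells, described above, also stood apart, at 79.4 CPM against a library median of 7.55 CPM.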

How the results depend on the processing

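Sema3a in lymphatic and Sema3g in blood endothelial cell-like cells were placed under 16 of 16 alternatives, Sema3d under 15 and Sema3e under 12. The count of genes placed in a class was 4 and ran from 3 to 4 with each library left out. It was 2 with a factor of 6. The count placed in an endothelial subtype was 4 and ran from 3 to 5 with each library left out. It was 1 with a factor of 3 and 2 at an endothelial resolution of 1.0. Sema3g was placed in arteriolar-like cells under 15 of 16 alternatives, and in capillary-like cells with at most 10% mitochondrial UMIs. Plxna4 kept its subtype under 14, Nrp1 under 13 and Sema3d under 10. With doublets kept, Sema3c and Sema3d were placed in a lymphatic-like subtype. Sema3c was placed in venous-like cells without library 4, and Nrp2 with a factor of 1.5. The count of genes that differ between clusters of a class was 8 and ran from 7 to 8 with each library left out. It was 5 at a resolution of 1.0. At that resolution the log2 ratio of the highest to the next class fell from 0.88 to 0.05 for Nrp1 and from 1.58 to 0.41 for Plxnd1, since new classes then came next, pericyte-like cells with 471 CPM of Nrp1 and dendritic cell-like cells with 148 CPM of Plxnd1. The log2 ratio of Sema3d was 2.12 with doublets kept, against 2.35. Leaving out the pericyte-like class was not run, since the main clustering had none. No paired analysis was possible because the libraries carry no genotype or replicate number; cell groups were compared within libraries. Depth limits the values of small groups. The levels of Sema3a and Sema3e in blood endothelial cell-like cells rest on few UMIs (36 and 39).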
